A study of Homo sapiens with 9 samples.

Results

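HSD11B1, the enzyme that regenerates cortisol inside cells, was examined together with 9 genes that surround it in glucocorticoid biology: HSD11B2, H6PD, NR3C1, NR3C2, FKBP5, TSC22D3, PER1, ZBTB16 and SGK1. HSD11B1 was chosen for its large rise after knockdown of YAP, and the others for their roles in the pathway. These 10 genes, of 36601 in the files, were matched by symbol to their Ensembl identifiers, and all 10 were found. The data are RNA-seq read counts from LX2, an established human line of hepatic stellate cells. In the liver these cells store vitamin A at rest and lay down collagen as myofibroblasts when the tissue scars. Of the 9 libraries, 3 came from cells given a non-targeting siRNA (siNT), 3 from cells given an siRNA against YAP (siYAP) and 3 from cells given an siRNA against TAZ (siTAZ). Every group received siRNA at 20 nM through a lipid reagent and was kept for 7 days in DMEM with 10% fetal bovine serum and antibiotics. The labels name no added glucocorticoid, and the steroid content of the serum is not given. They do not say what separates the replicates, so p-values measure the spread between these libraries, which may be technical, and all groups are the same cell line.

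Glucocorticoids reach their receptors only in an active 11-hydroxy form. HSD11B1 sits in the endoplasmic reticulum and turns inactive cortisone into cortisol, using NADPH that H6PD makes in the lumen of that organelle, while HSD11B2 runs the opposite reaction and protects mineralocorticoid target cells from cortisol. Cortisol binds the glucocorticoid receptor (NR3C1) and, with higher affinity, the mineralocorticoid receptor (NR3C2), which are held ready for hormone by HSP90 and its partner proteins. Bound receptors enter the nucleus, induce genes such as FKBP5, TSC22D3, PER1, ZBTB16 and SGK1, and restrain many inflammatory genes. In the liver, HSD11B1 is best known from hepatocytes.

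After YAP knockdown the genes examined went in different directions, and without HSD11B1 the share called lay near that of all genes. HSD11B1 went from a handful of reads to 44.9 ± 1.23 CPM (SD, n = 3; CPM puts all libraries on one scale, here with TMM factors), and the mineralocorticoid receptor gene NR3C2 rose 5.21-fold. The glucocorticoid receptor gene NR3C1, the NADPH source H6PD and the receptor's target FKBP5 fell, by 9.85%, 21.3% and 29.6%. TSC22D3 rose 1.26-fold, while PER1 and SGK1 did not pass the test. After TAZ knockdown SGK1 and TSC22D3 rose 1.28-fold and 1.31-fold, and HSD11B1 had 4 counts in all against 20 after siNT, too few to pass the filter on low counts in those groups alone.

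Of the 10 genes, 8 passed the filter on low counts and HSD11B2 and ZBTB16 did not. Without HSD11B1, which is left out because it was chosen on this contrast, 7 genes were tested in siYAP against siNT. Of these, 2 were higher (NR3C2 and TSC22D3) and 3 lower (H6PD, NR3C1 and FKBP5) at an adjusted p under 0.05 in edgeR's quasi-likelihood test, p-values being adjusted by Benjamini-Hochberg. Among all 15560 genes tested in that comparison, 67.1% were called, 33.8% higher and 33.4% lower, so 5 called of 7 lies near the background and is no result about these genes as a set. In siTAZ against siNT, 3 of the same 7 were higher (NR3C2, TSC22D3 and SGK1), 0 were lower and 4 were not called. HSD11B1 is left out there too, because it passed the filter on low counts only through its siYAP libraries and was chosen on the siNT libraries. The background there was 34.6% called, 16.4% higher and 18.2% lower. In siTAZ against siYAP, again without HSD11B1, 4 of 7 were higher (H6PD, NR3C1, FKBP5 and SGK1), 1 was lower (NR3C2) and 2 were not called. All genes gave 66.2% called in that comparison, 33.0% higher and 33.2% lower. The first 2 comparisons share the siNT libraries, and the median log2 fold change of all genes was 0.02, 0.01 and -0.01 in the order given.

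**Figure D1:**
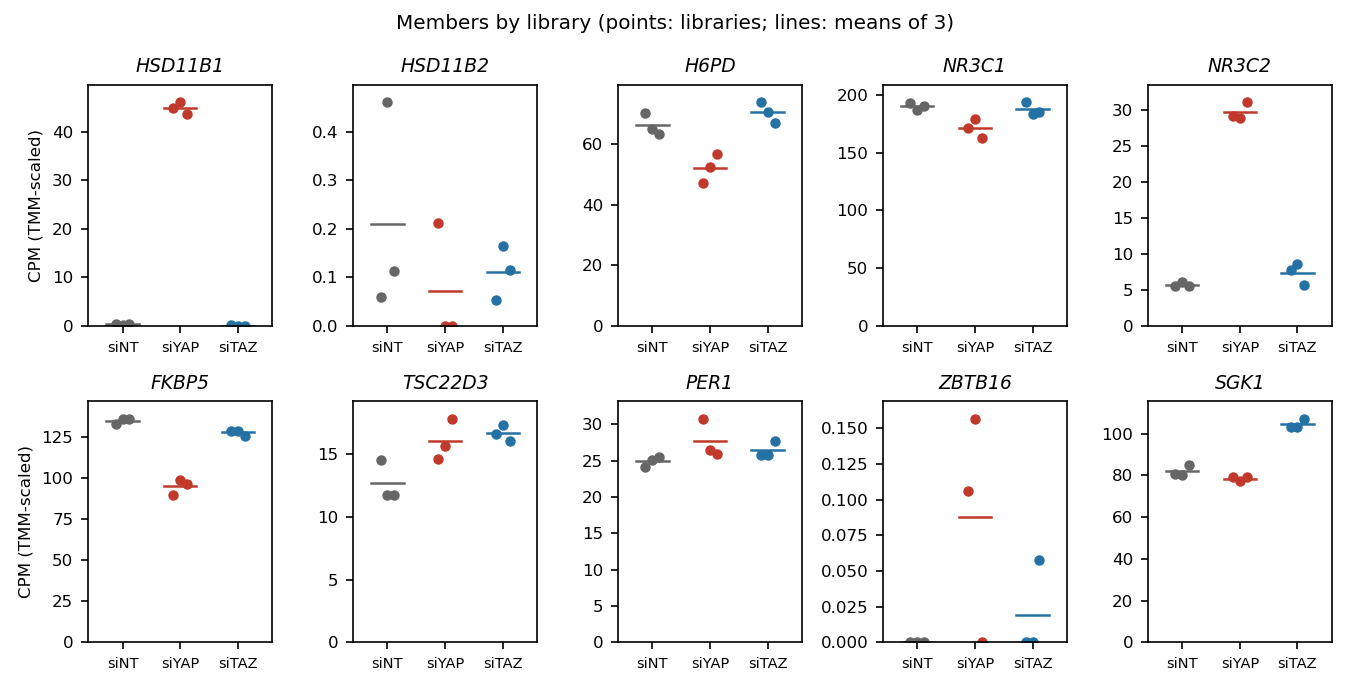
Level of each of the 10 genes in each library, in TMM-scaled CPM on linear axes that start at 0. Points are libraries and lines are means of 3. The siYAP libraries stand above all others for HSD11B1 and NR3C2 and below all others for FKBP5, H6PD and NR3C1, and the siTAZ libraries stand above all others for SGK1; HSD11B2 and ZBTB16 rest on 8 counts or fewer in any library.

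The knockdowns are visible in the targeted genes. YAP1 averaged 209 ± 4.11 CPM with siNT, 26.3 ± 1.49 with siYAP and 170 ± 8.01 with siTAZ, and WWTR1, which encodes TAZ, averaged 62.0 ± 5.50, 75.8 ± 0.522 and 9.54 ± 0.917 CPM (SD, n = 3 each). Libraries held 16498508 to 18752805 counts in genes, and 1 count was worth 0.0522 to 0.0591 CPM. Replicates of a group differed by more than counting noise, with a chi-square per degree of freedom of 2.54 to 5.03 over genes. Of 15 stellate and fibroblast markers 14 had reads, and the retinol esterifying enzyme LRAT, a marker of quiescent stellate cells, had 0 counts in every library. Of the 13 tested, 4 were higher and 8 lower after siYAP, and 5 were higher and 3 lower after siTAZ: TIMP1, COL1A2 and RELN rose 2.56-fold, 2.10-fold and 5.17-fold after siYAP, while SPARC, TAGLN and COL1A1 fell by 1.86, 2.80 and 1.03 on the log2 scale. Shares called were 92.3% and 61.5%, against 67.1% and 34.6% of all genes. The summed level of these markers was 10100 to 10200 CPM after siNT, 5060 to 5130 after siYAP and 14800 to 14900 after siTAZ, and COL1A1 (4168, 2046 and 6255 CPM on average) and SPARC (3276, 901 and 4521 CPM) made up much of it. In such bulk samples, fewer cells that express a gene and less RNA per cell cannot be told apart.

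Promoter sequences are shown for the members with the largest rise after siYAP (HSD11B1 and NR3C2) and for the target that fell most (FKBP5), so that the letters searched can be seen in place. They are 300-base RefSeq windows of GRCh38.p14, mostly upstream of an annotated start, 5′ to 3′ on the gene's strand. Capitals mark any match, on either strand, to the word AGAACA, the core of the hormone receptors' binding site, the C/EBP palindrome TTGCGCAA, the AP-1 word TGANTCA or the TEAD word GGAATG; TEAD proteins are the DNA-binding partners of YAP and TAZ. HSD11B1 lies at chr1:209685929-209686228 on the plus strand, NR3C2 at chr4:148444649-148444948 on the minus strand (the window whose start is that of the GENCODE gene) and FKBP5 at chr6:35728534-35728833 on the minus strand.
HSD11B1: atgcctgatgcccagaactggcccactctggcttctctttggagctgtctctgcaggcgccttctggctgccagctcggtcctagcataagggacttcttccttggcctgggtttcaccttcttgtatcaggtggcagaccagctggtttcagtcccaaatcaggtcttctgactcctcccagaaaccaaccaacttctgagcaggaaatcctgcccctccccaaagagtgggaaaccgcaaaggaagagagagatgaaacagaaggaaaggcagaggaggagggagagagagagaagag
NR3C2: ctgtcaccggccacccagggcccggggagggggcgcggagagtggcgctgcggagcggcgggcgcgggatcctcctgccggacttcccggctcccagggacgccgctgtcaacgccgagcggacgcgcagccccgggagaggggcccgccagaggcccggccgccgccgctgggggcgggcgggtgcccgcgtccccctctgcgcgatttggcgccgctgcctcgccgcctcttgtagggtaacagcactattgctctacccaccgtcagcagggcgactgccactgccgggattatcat
FKBP5: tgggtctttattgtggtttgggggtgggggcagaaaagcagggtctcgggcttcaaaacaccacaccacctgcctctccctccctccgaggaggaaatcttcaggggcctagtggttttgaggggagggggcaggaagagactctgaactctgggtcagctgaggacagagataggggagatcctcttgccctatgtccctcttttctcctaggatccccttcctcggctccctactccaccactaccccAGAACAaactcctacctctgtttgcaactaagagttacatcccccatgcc
The HSD11B1 window had a GC content of 54.3% and the NR3C2 window 75%, and neither held any of the 4 words. The FKBP5 window, at 55.7% GC, held 1 receptor word that begins at the annotated start itself. Promoters were found for 8 of the 10 genes, 23 windows in all, with none for HSD11B2 and ZBTB16. The other matches (positions counted from the RefSeq start of each window, which can differ from the GENCODE gene start) were a receptor word 204 bases upstream in the H6PD window, a receptor word that begins at position 6 of the transcript in the second SGK1 window, a TEAD word 153 bases upstream in the second NR3C1 window and an AP-1 word 228 bases upstream in the third. Among 35116 RefSeq promoters of the same length, 14.8% held the receptor word, 0.151% the C/EBP palindrome, 7.71% the AP-1 word and 14.0% the TEAD word. A match describes letters and is not a bound site, and its absence says only that these letters are not in the window.

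HSD11B1 (ENSG00000117594, a protein-coding gene at chr1:209686178-209734950 in GENCODE 29 on GRCh38) had 7, 5 and 8 counts in the siNT libraries and 844, 883 and 738 in the siYAP libraries. In the siTAZ libraries it had 3, 1 and 0 counts. As CPM these were 0.413, 0.288 and 0.453 after siNT, 44.9, 46.1 and 43.6 after siYAP, and 0.162, 0.0546 and 0 after siTAZ. No library of any group overlapped those of another, all siNT libraries were above the level of 3 counts (0.157 to 0.177 CPM over the libraries), and all siTAZ libraries were at or below it.

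The siYAP level was 117 times the siNT level. Summed over libraries this compares 2465 counts with 20, which gives a 95% interval of 75.5 to 192 for counting error only. The log2 fold change was 6.84, which placed HSD11B1 at rank 34 of 15560 genes. These values are a description, since the gene was chosen for them. Between siTAZ and siNT the summed counts were 4 against 20, which makes the siNT level 5.20 times the siTAZ level with a counting interval of 1.74 to 20.9. The fitted log2 fold change, siTAZ against siNT, was -2.28 ± 0.66 (SE), and it was -3.48 without siTAZ replicate 1 and -1.76 without siTAZ replicate 3. These too are a description with no test: with the siNT and siTAZ libraries alone the gene failed the filter on low counts. HSD11B1-AS1, a gene on the opposite strand that overlaps HSD11B1, had 9 counts in all, 0 after siNT, 6 after siYAP and 3 after siTAZ. Whether reads were counted by strand is not given.

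HSD11B2 (chr16:67430652-67437553), the enzyme that inactivates cortisol, was barely detected in any group. It had 1, 8 and 2 counts after siNT, 4, 0 and 0 after siYAP, and 1, 3 and 2 after siTAZ. The groups overlapped, and 1 siNT library held 8 of the 21 counts. The ratio of siYAP to siNT was 0.345 with a counting interval of 0.0801 to 1.16, so no difference was detectable at this depth.

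H6PD (chr1:9234775-9271337), which supplies NADPH to HSD11B1, gave 70.4, 65.1 and 63.5 CPM after siNT and 47.3, 52.4 and 56.8 after siYAP. After siTAZ it gave 73.8, 70.7 and 67.2. Every siYAP library was below every other library, and the siNT and siTAZ groups overlapped. Its log2 fold change was -0.35 ± 0.06 after siYAP (edgeR, adjusted p = 1.7e-06) and 0.09 ± 0.06 after siTAZ (adjusted p = 0.266). The siTAZ level was 1.35-fold above the siYAP level (adjusted p = 6.51e-09). Per kilobase of exon, HSD11B1 was 0.0358 ± 0.00837 times H6PD after siNT and 5.33 ± 0.564 times after siYAP, a shift that mostly restates the HSD11B1 values for which the gene was chosen.

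Other genes that make or move glucose-6-phosphate and NADPH did not go one way. Of 8 tested, 4 were higher and 3 lower after siYAP (median 0.14 on the log2 scale). SLC37A1 and SLC37A2, glucose-6-phosphate transporters, rose 2.29-fold and 2.04-fold, and POR, the NADPH-dependent reductase that serves microsomal P450 enzymes, rose 1.51-fold. PGLS and PGD, pentose phosphate enzymes that work in the cytosol, fell by 0.44 and 0.16 on the log2 scale. After siTAZ 2 of the 8 were higher, SLC37A1 at 1.46-fold and PGLS at 1.22-fold, and 0 were lower. Shares called were 87.5% after siYAP and 25% after siTAZ, against 67.1% and 34.6% of all genes.

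Among 16 tested enzymes that act on other steroids, 5 were higher and 3 lower after siYAP (median 0.11 on the log2 scale). The aldo-keto reductases AKR1B1, AKR1C1 and AKR1C3 rose 3.00-fold, 2.61-fold and 1.82-fold. AKR1C1, AKR1C2 and AKR1C3 are close in sequence, so reads may be split among them. SRD5A1, a steroid 5-alpha-reductase, fell by 0.66 on the log2 scale. After siTAZ 1 was higher (the steroid sulfatase STS, 1.19-fold) and 2 were lower (CYP11A1, which starts steroid synthesis from cholesterol, and HSD17B11, at log2 -1.87 ± 0.51 and -0.24 ± 0.08). In this list 50% and 18.8% were called, against 67.1% and 34.6% of all genes.

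**Figure D2:**
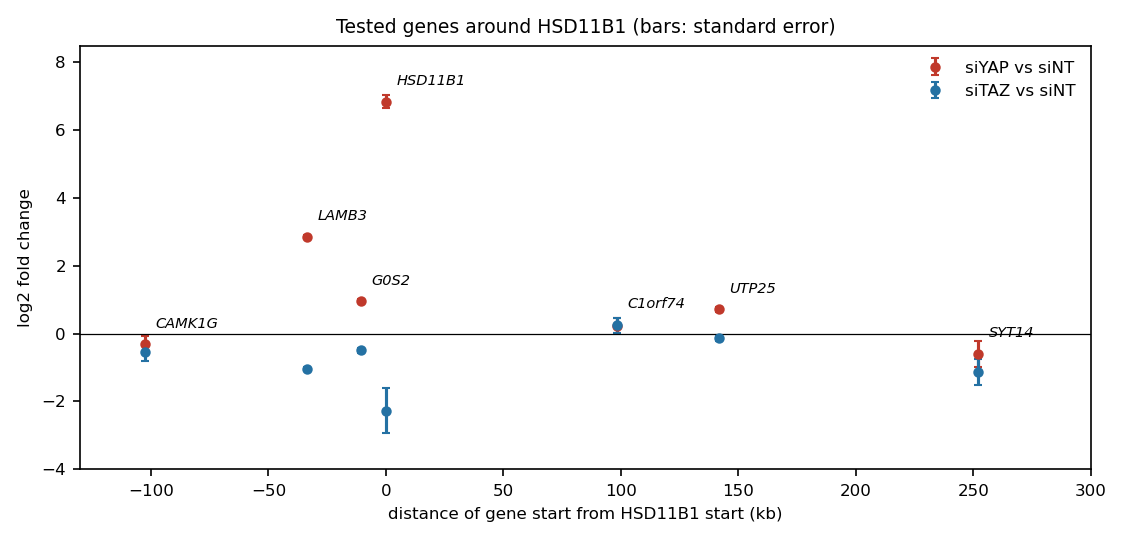
Log2 fold change against siNT of the tested genes around HSD11B1, by the distance of each gene's start from that of HSD11B1 in kilobases. Points are edgeR estimates and bars their standard errors. LAMB3 and G0S2 to the left and UTP25 to the right were higher after siYAP, at 2.86, 0.95 and 0.72, all far below HSD11B1 at 6.84.

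The genes beside HSD11B1 on chromosome 1 were mixed. LAMB3, a laminin chain whose start is 33.7 kb upstream, averaged 68.1 ± 2.01 CPM with siNT, 494 ± 27.4 with siYAP and 33.2 ± 1.31 with siTAZ. G0S2, an inhibitor of triglyceride lipase 10.8 kb upstream, averaged 52.9 ± 0.825, 102 ± 0.924 and 37.4 ± 3.54 CPM (SD, n = 3). Both were higher after siYAP and lower after siTAZ, with log2 fold changes of 2.86 and -1.04 for LAMB3 and 0.95 and -0.50 for G0S2 (edgeR, adjusted p = 1.52e-55, 3.24e-26, 8.7e-23 and 1.56e-09). UTP25, a ribosome assembly factor 141.8 kb downstream, rose after siYAP (0.72 ± 0.07, edgeR, adjusted p = 2.58e-13) but was not called after siTAZ. CAMK1G and C1orf74 were called in neither comparison. The synaptotagmin gene SYT14 was lower after siTAZ, at -1.13 ± 0.39 (edgeR, adjusted p = 0.0188), and not called after siYAP. TRAF3IP3 and HSD11B1-AS1 had too few counts to test. The 10 genes of the files in this window therefore include 6 tested neighbours, of which 3 were higher after siYAP and 3 lower after siTAZ. Among all genes 33.8% were higher after siYAP and 18.2% lower after siTAZ.

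NR3C1 (chr5:143277931-143435512), the glucocorticoid receptor gene, was the highest of the 10 per kilobase after siNT. It gave 193, 187 and 190 CPM after siNT, 172, 179 and 163 after siYAP, and 193, 184 and 186 after siTAZ. The siYAP libraries lay below all others, by a small margin, and the siNT and siTAZ libraries overlapped. The log2 fold change was -0.15 ± 0.04 after siYAP (edgeR, adjusted p = 0.000838) and -0.02 ± 0.04 after siTAZ (adjusted p = 0.777). The siTAZ level exceeded the siYAP level by 0.13 ± 0.04 on the log2 scale (adjusted p = 0.00314), and this call was lost without the siYAP replicate 3 library (adjusted p = 0.0511, with 0.000744 to 1 over all alternatives).

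NR3C2 (chr4:148078762-148444698), the mineralocorticoid receptor gene, went the other way. It gave 5.60, 6.04 and 5.49 CPM after siNT and 29.2, 28.97 and 31.1 after siYAP. After siTAZ the libraries gave 7.80, 8.57 and 5.71. The siYAP libraries did not overlap the rest, while 1 siTAZ library lay within the siNT range. The log2 fold change after siYAP was 2.38 ± 0.13 (edgeR, adjusted p = 5.17e-26), at rank 418 of 15560 genes. After siTAZ it was 0.37 ± 0.15 (edgeR, adjusted p = 0.0402). That siTAZ call did not hold with DESeq2 (adjusted p = 0.0559), with limma-voom (adjusted p = 0.121), or without any one of the 3 siNT libraries (adjusted p = 0.0513 to 0.112) or siTAZ replicate 1 or 2 (edgeR, adjusted p = 0.122 and 0.259). Over all its alternatives the adjusted p ran from 0.00451 to 1. The siTAZ level was below the siYAP level by 2.01 on the log2 scale (log2 fold change -2.01 ± 0.12, edgeR, adjusted p = 2.6e-23). The ratio of NR3C2 to NR3C1 per kilobase was 0.0418 ± 0.00273 in the siNT, 0.242 ± 0.0212 in the siYAP and 0.0545 ± 0.0111 in the siTAZ libraries (SD, n = 3). The glucocorticoid receptor transcript thus stayed the more abundant of the pair in all 9 libraries.

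**Figure D3:**
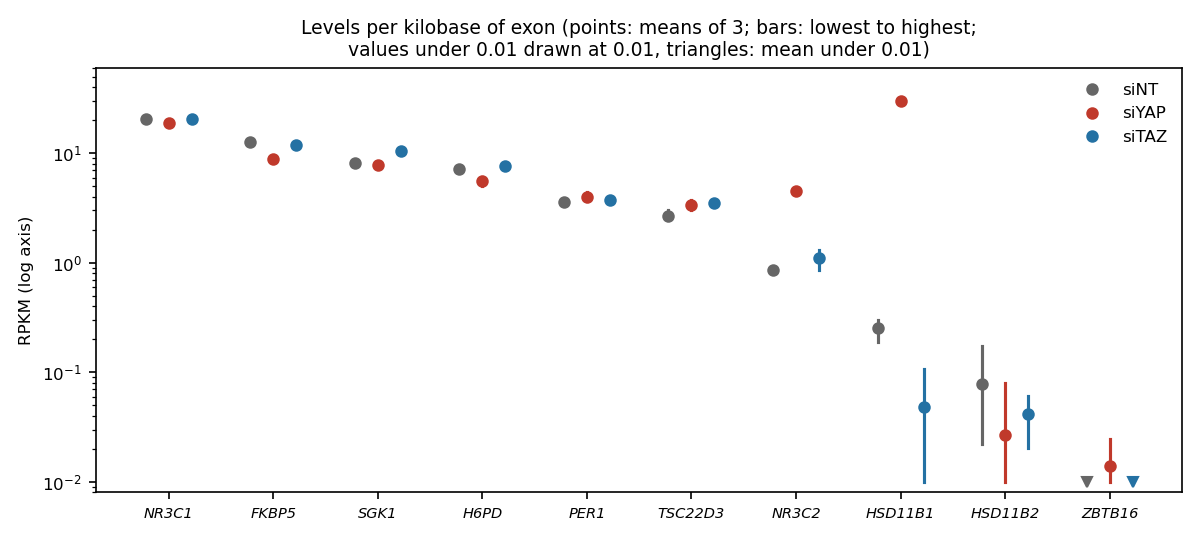
Level of each gene in RPKM (TMM-scaled CPM per kilobase of exon in GENCODE 29) on a log axis; points are means of 3 libraries and bars run from the lowest to the highest. HSD11B1 moves from 0.254 after siNT to 29.7 after siYAP, above NR3C1 at 18.7, while the order of NR3C1, FKBP5, SGK1 and H6PD is the same in all 3 groups.

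Set in order per kilobase, the siNT libraries ran from NR3C1 (20.7 RPKM) through FKBP5 (12.7), SGK1 (8.21), H6PD (7.11), PER1 (3.56), TSC22D3 (2.66) and NR3C2 (0.864) to HSD11B1 (0.254), HSD11B2 (0.0788) and ZBTB16 (0). The library ranges of neighbours in that order did not overlap. After siYAP the order was led by HSD11B1 at 29.7 RPKM, and NR3C2 moved up beside PER1: their ranges, 4.38 to 4.71 and 3.70 to 4.39 RPKM, overlapped, as did those of PER1 and TSC22D3 (3.06 to 3.73) and those of HSD11B2 and ZBTB16. After siTAZ the order was that of siNT, with HSD11B1 at 0.0478 RPKM and HSD11B2 at 0.0416 RPKM, whose ranges overlapped.

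Most genes of the receptor's chaperone machine fell in both knockdowns. After siYAP 11 of 15 fell and 0 rose, with a median log2 fold change of -0.23, and after siTAZ 12 fell and 0 rose, with a median of -0.18. The shares called, 73.3% and 80.0%, compare with 67.1% and 34.6% of all genes, and both comparisons use the same siNT libraries. HSP90AB1 and HSP90AA1, the HSP90 chaperones that hold the receptor, fell by 0.66 and 0.63 on the log2 scale after siYAP, and HSPA8, a constitutive HSP70, fell by 0.47. After siTAZ the largest of the named falls was that of FKBP4, the co-chaperone that competes with FKBP5 for the receptor complex. FKBP4 averaged 179 CPM with siNT, 115 with siYAP and 81.3 with siTAZ, log2 fold changes of -0.64 ± 0.04 and -1.14 ± 0.05 (edgeR, adjusted p = 1.65e-20 and 4.6e-31).

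Coactivators and corepressors of nuclear receptors were mixed. Of 17 tested, 7 were higher and 5 lower after siYAP (median -0.02), and 3 were higher and 7 lower after siTAZ (median -0.09). That is 70.6% and 58.8% called, beside 67.1% and 34.6% of all genes. The histone acetyltransferases EP300 and CREBBP, which are close relatives, moved apart after siYAP: EP300 rose 1.46-fold and CREBBP fell by 0.52 on the log2 scale. The coactivator NCOA1 rose 1.58-fold after siYAP and 1.17-fold after siTAZ. NRIP1, a corepressor, fell by 0.76 on the log2 scale after siTAZ.

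**Figure D4:**
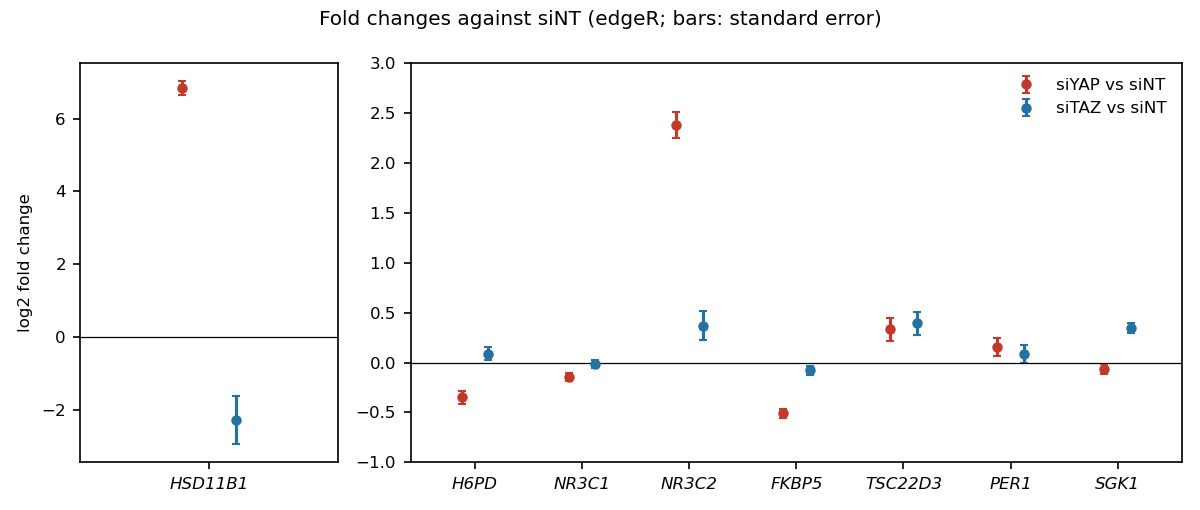
Log2 fold change of the 8 tested genes against siNT, with standard errors derived from edgeR's F statistic. HSD11B1 is drawn on its own axis. After siYAP NR3C2 is highest of the other 7 at 2.38 and FKBP5 lowest at -0.51, and after siTAZ TSC22D3, NR3C2 and SGK1 lie between 0.35 and 0.39.

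FKBP5 (chr6:35573585-35728583) encodes a co-chaperone that lowers the receptor's affinity for hormone and is itself a strong receptor target. It gave 133, 136 and 136 CPM after siNT, 89.7, 98.8 and 96.6 after siYAP, and 129, 129 and 126 after siTAZ. The siYAP libraries lay far below the others, and the siTAZ libraries just below the siNT ones without overlap. Expressed as log2 fold changes these were -0.51 ± 0.05 after siYAP (edgeR, adjusted p = 1.29e-15) and -0.08 ± 0.04 after siTAZ (adjusted p = 0.176). The siTAZ level was above the siYAP level by 0.43 ± 0.05 on that scale (edgeR, adjusted p = 7.48e-13).

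TSC22D3 (chrX:107713221-107777342) encodes GILZ, a leucine zipper protein that carries part of the anti-inflammatory action of glucocorticoids. It gave 14.6, 11.7 and 11.8 CPM after siNT, 14.6, 15.7 and 17.8 after siYAP, and 16.6, 17.3 and 16.0 after siTAZ. The siYAP and siNT groups almost touched, at 14.58 and 14.56 CPM, because siNT replicate 1 was high. The log2 fold change was 0.33 ± 0.12 after siYAP (edgeR, adjusted p = 0.00899) and 0.39 ± 0.12 after siTAZ (edgeR, adjusted p = 0.00506), and the knockdowns did not differ by the test (0.06 ± 0.11, edgeR, adjusted p = 0.666). The siYAP call was lost without siNT replicate 2 (edgeR, adjusted p = 0.0655), siNT replicate 3 (0.0639) or siYAP replicate 3 (0.0818), and over all alternatives the adjusted p ran from 0.00294 to 1. FKBP5 and TSC22D3, both classical targets of the receptor, thus went in opposite directions after siYAP. NCBP2L, which overlaps TSC22D3 on the opposite strand, had 4 counts in all.

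PER1 (chr17:8140472-8156506), a clock repressor that glucocorticoids induce, gave 24.2, 25.1 and 25.5 CPM after siNT and 30.8, 26.5 and 25.9 after siYAP. After siTAZ it gave 25.8, 25.8 and 27.7. Both knockdown groups lay above the siNT libraries without overlap, though at the closest only 25.8 against 25.5 CPM apart, and neither passed the test: 0.16 ± 0.09 after siYAP (edgeR, adjusted p = 0.106) and 0.09 ± 0.09 after siTAZ (adjusted p = 0.488). One siYAP library, replicate 1, was the highest of the 9.

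ZBTB16 (chr11:114059593-114250676) encodes PLZF, a zinc finger factor that glucocorticoids switch on strongly in many cells. It had 0 counts in all 3 siNT libraries, 2, 3 and 0 after siYAP, and 0, 0 and 1 after siTAZ. All these lie at or under the floor of 3 counts, so no change was detectable at this depth. It was not tested.

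SGK1 (chr6:134169246-134318112), a kinase gene that responds to both receptors and acts on ion channels, gave 80.5, 80.4 and 85.1 CPM after siNT, 79.1, 77.2 and 79.1 after siYAP, and 103.4, 103.3 and 107.1 after siTAZ. Here the siTAZ libraries stood apart and above, and the siYAP libraries lay slightly under the siNT ones. SGK1 rose by 0.35 ± 0.05 on the log2 scale after siTAZ (edgeR, adjusted p = 2.51e-08) and gave -0.06 ± 0.05 after siYAP (adjusted p = 0.26). The difference between the knockdowns was 0.42 ± 0.05 (edgeR, adjusted p = 4.2e-11). Of the 9 tested genes around the mineralocorticoid receptor and SGK1, 4 were higher and 3 lower after siYAP (median 0.01), and 2 were higher and 3 lower after siTAZ (median -0.06). That makes 77.8% and 55.6% called, where all genes gave 67.1% and 34.6%. NDRG1, whose protein is a direct substrate of SGK1, rose 2.97-fold after siYAP and fell by 0.34 on the log2 scale after siTAZ (edgeR, adjusted p = 4.04e-39 and 1.29e-07). These are transcript levels and do not measure the activity of the kinase. SCNN1B and SCNN1G, subunits of the epithelial sodium channel, had 0 counts in every library. SCNN1A, another subunit, had 10, 7 and 6 counts summed over the siNT, siYAP and siTAZ libraries and was not tested. These subunits are named after their values were seen.

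The wider set of glucocorticoid-induced genes did not move together. Of 36 genes listed 27 were tested; 15 were higher and 8 lower after siYAP, at a median of 0.27 on the log2 scale, and 7 were higher and 6 lower after siTAZ, with a median of 0.00. The shares called were 85.2% and 48.1%, against 67.1% and 34.6% of all genes. After siYAP BIRC3, TXNIP and STOM rose 6.12-fold, 3.04-fold and 2.67-fold; BIRC3 is also a target of NF-kB. CRISPLD2, a secreted protein, ADAMTS1, a protease, and GLUL, glutamine synthetase, fell by 2.51, 1.79 and 1.41 on the log2 scale. KLF9, a transcription factor that the receptor induces directly, averaged 52.6 CPM with siNT, 25.2 with siYAP and 101 with siTAZ. Its log2 fold changes were -1.06 ± 0.07 and 0.94 ± 0.06 (edgeR, adjusted p = 2.39e-21 and 1.87e-20). TXNIP, a thioredoxin inhibitor, rose 1.81-fold after siTAZ, and ADAMTS1 fell by 1.66 on the log2 scale.

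**Figure D5:**
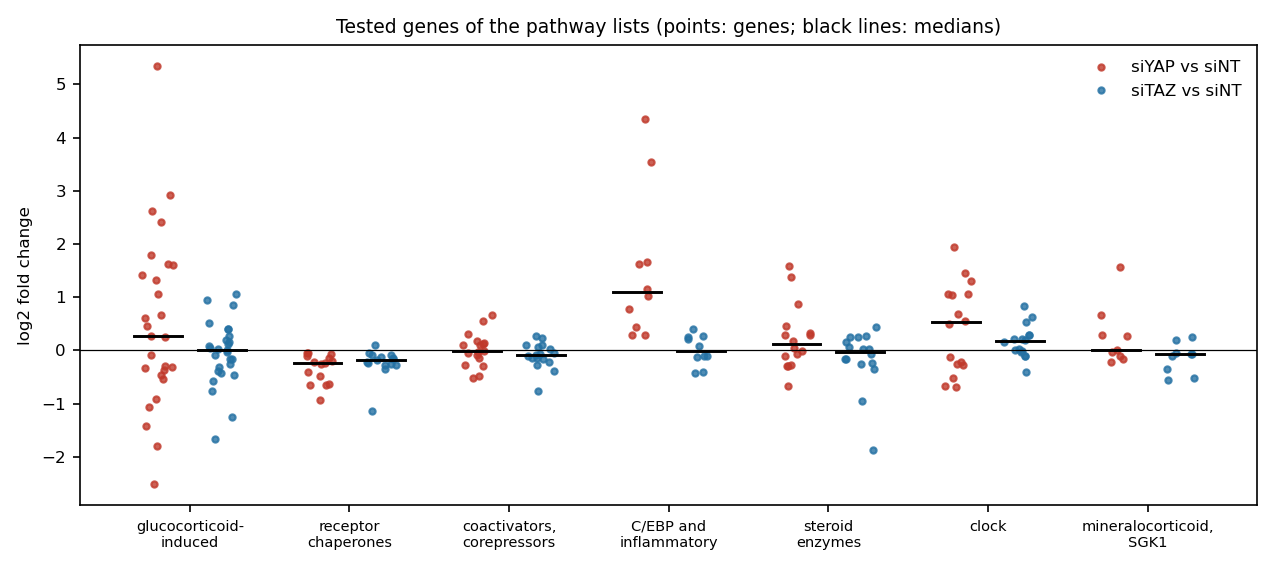
Log2 fold change against siNT of each tested gene of 7 lists; points are genes and black lines medians. The 10 C/EBP and inflammatory regulators all lie above 0 after siYAP with a median of 1.09, the chaperones all lie below 0 after siYAP with a median of -0.23, and the glucocorticoid-induced genes spread from -2.51 to 5.34.

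Genes that glucocorticoids repress were high after siYAP, alongside HSD11B1. Of 16 tested cytokine, chemokine, adhesion and protease genes 15 rose and 0 fell when YAP was knocked down, against 33.8% and 33.4% of all genes. The median was 3.95 on the log2 scale, against 0.02 for all genes. This and the other lists were chosen with earlier results of these data known. The gene that did not pass, named after its value was seen, was the adhesion molecule VCAM1 (0.11 ± 0.17, edgeR, adjusted p = 0.587). IL1B, MMP1 and CCL2 rose 11.7-fold, 8.80-fold and 7.88-fold. PTGS2 and CCL20 had 0 counts after siNT and reached at least 39.5 and 39.0 times the level of 3 counts per siNT library in the siYAP group. The median is 3.95 with them at these bounds too. Both are among the 15, but they passed the filter on low counts only through siYAP, so their rises are a description with no test. After siTAZ 10 of the 16 fell and 1 rose, against 18.2% and 16.4% of all genes, with a median of -0.57. The 16 include PTGS2 and CCL20, which were at or under the floor in both groups and passed the filter only through siYAP. Without them the median was -0.64. MMP1 fell by 1.52, CSF2 fell by 2.28 and IL1B fell by 0.42 on the log2 scale, and CCL2 rose 1.30-fold.

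The listed regulators of HSD11B1 transcription and of its induction by cytokines that passed the filter on low counts moved the same way after siYAP. All 10 tested were higher, against 33.8% of all genes, with a median log2 fold change of 1.09. They include IL1A and IL1B, which are also in the list of repressed genes, and rose 20.6-fold and 11.7-fold. CEBPD, a C/EBP factor, averaged 27.99 CPM with siNT, 86.5 with siYAP and 37.1 with siTAZ, log2 fold changes of 1.63 ± 0.07 and 0.41 ± 0.07 (edgeR, adjusted p = 4.79e-32 and 2.48e-06). CEBPB, another C/EBP factor, averaged 77.2, 157 and 71.6 CPM. Its log2 fold change of 1.03 ± 0.05 after siYAP passed the test (edgeR, adjusted p = 1.42e-28), while that of -0.11 ± 0.05 after siTAZ did not (adjusted p = 0.0914). CEBPA and TNF had too few counts to test. CEBPA had 11, 2 and 8 counts summed over the siNT, siYAP and siTAZ libraries, and TNF had 2, 2 and 0. CEBPB, CEBPA and TNF are named here after their values were seen. After siTAZ 3 of the 10 were higher and 2 lower, against 16.4% and 18.2% of all genes, with a median of -0.01. Whether any of these genes acts on HSD11B1 in these cells was not tested.

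Among 16 tested clock genes other than PER1, 8 were higher and 5 lower after siYAP (median 0.53), and 5 were higher and 0 lower after siTAZ (median 0.18). Shares called were 81.2% and 31.2%, against 67.1% and 34.6% of all genes. BHLHE40, BHLHE41 and NFIL3, repressors of clock output, rose 3.86-fold, 2.08-fold and 2.47-fold after siYAP, while NR1D2, CLOCK and TEF fell by 0.69, 0.52 and 0.67 on the log2 scale. After siTAZ BHLHE41, CRY2 and CLOCK rose 1.79-fold, 1.54-fold and 1.22-fold. The time of harvest is not given. Of 10 tested paralogs of the members, 4 were higher and 5 lower after siYAP (median -0.04), and 2 were higher and 2 lower after siTAZ (median -0.01). For the paralogs 90% and 40% were called, against the same shares of all genes. PER2, the sister gene of PER1, rose 2.08-fold after siYAP, and TSC22D1 and TSC22D4 rose 1.92-fold and 1.65-fold.

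HSD11B1 is abundant in hepatocytes and fat cells, so their markers are given beside it. Of 9 hepatocyte markers 7 had at most 3 counts in every library and TTR had 0 throughout. Their summed level was 1.90 to 2.32 CPM after siNT, 12.9 to 16.1 after siYAP and 1.03 to 2.24 after siTAZ, carried by SERPINA1 (1.89, 14.7 and 1.47 CPM on average), which cytokines also induce. The 6 adipocyte markers summed to 1.5 to 2, 3.49 to 4.68 and 1.62 to 3.23 CPM, with ADIPOQ at 0. Most of this was PLIN4 (1.33, 3.63 and 2.07 CPM on average). Leukocyte markers summed to 13.6 to 15.1, 17.0 to 18.4 and 10.9 to 13.3 CPM, within which ITGAM and CSF1R rose 11.3-fold and 3.47-fold after siYAP and PTPRC fell by 4.09 on the log2 scale. Endothelial markers summed to 7.87 to 8.57, 8.51 to 11.6 and 3.36 to 4.48 CPM, within which PECAM1 and KDR rose 12.3-fold and 2.39-fold after siYAP while CDH5 and VWF fell by 3.81 and 2.22 on the log2 scale. PTPRC, CDH5 and VWF fell after siTAZ as well, by 2.59, 1.16 and 2.52. ITGAM and PECAM1 passed the filter on low counts only through siYAP, and PTPRC and VWF only through siNT. Summed over the siNT, siYAP and siTAZ libraries, ITGAM had 19, 228 and 28 counts and PECAM1 had 27, 350 and 20. PTPRC had 135, 8 and 23 counts and VWF had 46, 10 and 8. The changes of these genes are a description with no test. The cholangiocyte and epithelial markers summed to 50.2 to 52.6, 79.9 to 83.1 and 68.5 to 72.5 CPM. Nearly all of this was SOX9 (49.1, 80.0 and 68.4 CPM on average). KRT7 was called in neither comparison with siNT, and EPCAM, KRT19 and CDH1 had too few counts to test. The part of these markers' shifts in the members' values was not tested.

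The genes whose pattern over the 9 libraries was most like that of HSD11B1, by Pearson's r of log2 CPM over all tested genes with a symbol, were CXCL1 (0.999), CAB39 (0.998), OTULIN, KIDINS220 and FMNL3 (0.997 each). The libraries fall into 3 groups, so these coefficients describe levels that are high after siYAP and lowest after siTAZ, and the sizes differ widely. CXCL1, a neutrophil-attracting chemokine, averaged 18.4 CPM with siNT, 534 with siYAP and 9.90 with siTAZ. CAB39, a scaffold of the LKB1 kinase, averaged 243, 330 and 226 CPM. OTULIN, an enzyme that removes linear ubiquitin chains, averaged 165, 187 and 161 CPM, a far smaller step in the same order.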

How the data were processed

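RNA-seq counts of LX2 cells, 3 libraries per siRNA group, were used. The authors deposited unnormalised counts of reads for each Ensembl gene. The tools named in the submitters' processing notes are HTSeq, Picard, SAMtools, STAR 2.5.0c and Trim Galore. The build named there, mm10, is a mouse build, whereas the gene identifiers are human. The build, annotation release and strand setting behind the counts are therefore not known, and coordinates printed are GENCODE 29 or RefSeq on GRCh38. Reads assigned to no gene (4.73 to 7.49%) or to several (6.33 to 6.91%) were left out. The design text names siNT once in the place of siTAZ, and grouping followed the sample labels.

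Genes with no count numbered 10252. Genes were kept by filterByExpr (minimum count 10, minimum total 15), libraries were scaled by TMM, and edgeR 4.0.16 (R 4.3.3, limma 3.58.1) fitted a robust quasi-likelihood model over all 9 libraries. Tests were two-sided with Benjamini-Hochberg adjustment over 15560 genes, with calls at adjusted values under 0.05. Standard errors are the size of the log2 fold change divided by the square root of the test's F statistic. RPKM divides CPM by GENCODE exon length. Intervals of count ratios are 95% and, like the floor of 3 counts, cover counting error only. The script was tested on simulated counts. Members and gene lists were chosen with earlier results of these data known. Named genes were all members, YAP1, WWTR1, the chromosome 1 neighbours, the 5 genes most like HSD11B1 (log2 CPM with a prior count of 2) and, per list and comparison with siNT, up to 3 called genes with the smallest p in each direction; a few genes that this rule names are not reported here. No pairing of the samples by replicate number was visible, and the labels state none. Alternatives were scaling by RLE or upper quartile, no filter or CPM of at least 1 in 3 libraries, a replicate block, a fit over the groups compared, DESeq2 1.42.0, limma-voom, an adjusted p under 0.01, a test against a fold of 1.5, and each library left out.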

Additional observations from a re-analysis of the deposited data

How the results depend on the processing

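No called result reversed. Of 455 fold changes of members under alternatives, 428 kept their side of the threshold or, for HSD11B1 in comparisons with siYAP, where no test is read, moved by less than the spread between replicates. The 455 also hold the values of HSD11B1 in siTAZ against siNT, which are a description and not a test. Uncalled values near 0 changed sign 2 times: PER1 in siTAZ against siYAP (0.02 without siYAP replicate 1) and NR3C1 in siTAZ against siNT (0.000421 with upper-quartile scaling). Of 264 counts of lists 260 stayed within 1.5 times. The test against a fold of 1.5 asks for larger changes. It called 1 member in siYAP against siNT (1 higher, NR3C2, and 0 lower) and 0 in siTAZ against siNT (0 higher, 0 lower). In siTAZ against siYAP it called 1 (0 higher). Over all genes it called 3852 (1957 higher, 1895 lower), 342 (115 higher, 227 lower) and 3633 (1736 higher, 1897 lower). With the compared groups alone, siTAZ against siNT called 2 members higher and 0 lower, against 3 higher with all groups. NR3C2 then missed the threshold. HSD11B1 is left out of these counts and failed the filter in that fit. Leaving out each library in turn gave 1 to 2 members higher in siYAP against siNT, TSC22D3 being lost. The replicate block called 10434, 5413 and 10268 of all genes in the 3 comparisons. Deviations of libraries with the same number correlated at -0.0305 to 0.0136 over 9 pairs, and 2 of 9 libraries were closest to their own number. No pairing by number was therefore visible, though whether libraries of the same number were handled together is not given. Depth limits HSD11B2, ZBTB16 and HSD11B1 outside the siYAP group, where libraries held 8 counts or fewer, and the cause of the losses other than through fewer genes or samples was not tested.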
